A study of Homo sapiens with 25 samples.

Results

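The Krüppel-like factors (KLF genes) are a family of transcription factors with zinc fingers at the C-terminal end, and 10 of them were chosen here by name: KLF2, KLF3, KLF4, KLF5, KLF6, KLF7, KLF9, KLF10, KLF11 and KLF13. They are 10 of the 28395 gene IDs in the count table, and all 10 passed the filter on low counts, as did 14658 genes in all. No measured value entered the choice of a gene by name, but earlier results of these data were known when the list was drawn up.

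KLF proteins bind GC-rich and CACCC-type sequences in promoters and enhancers, and differ mainly in the parts outside the zinc fingers. KLF2, KLF4, KLF5, KLF6 and KLF7 form the group that mostly activates transcription, often through the acetyltransferases p300 and CBP. KLF3 recruits the corepressor CtBP, and KLF9, KLF10, KLF11, KLF13 and KLF16 recruit the SIN3A corepressor. Several of the genes are induced rapidly by growth factor or stress signals, and in lung epithelium KLF5 and KLF4 are known for roles in proliferation, differentiation and barrier function.

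The cells were A549, an established human lung carcinoma line, with TRRAP, a scaffold subunit shared by the acetyltransferase complexes SAGA and TIP60, fused to a degron tag (mAID). The sample labels name A549 throughout, while the design text writes A459. All 12 RNA libraries came from cells synchronised in S phase by 20 h of thymidine at 2 mM, followed by 4 h in fresh medium. There were 4 groups of 3 libraries: both drugs (1 µM 5-Ph-IAA for 6 h, which triggers degradation of the tagged TRRAP, plus the CHK1 inhibitor prexasertib for 3 h), 5-Ph-IAA alone, prexasertib alone, and DMSO. The question of the study is how TRRAP loss changes the response to CHK1 inhibition. The prexasertib dose carries different units in the RNA and the chromatin labels, so it is left out. The genotype field of the RNA samples reads WT, whereas their culture text describes the degron line. Whether that line is 1 clone is not stated in the labels. TRRAP protein, and the effect of 5-Ph-IAA where TRRAP is untagged, are not analysed here.

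Total counts ran from 10830048 to 17789482 per library. TRRAP mRNA, which the degron does not target, averaged 119 ± 20.8 CPM with both drugs, 133 ± 15.3 CPM with 5-Ph-IAA, 74.8 ± 10.4 CPM with prexasertib and 83.2 ± 9.9 CPM in DMSO (SD, n = 3), so it does not check the labels. CPM are counts scaled to library size, adjusted by TMM factors. Of 9 epithelial markers 8 passed the filter, with a summed level of 7460 to 9550 CPM, here on unadjusted library sizes as for all markers. Of 9 alveolar markers 3 passed the filter, ABCA3 at a mean of 68.4 CPM, NAPSA at 3.44 and AGER at 3.26. The others were near absent: SFTPA1 and SFTPB had 0 counts in the 12 libraries, NKX2-1 had 14 and SFTPC 45. Of 16 markers of blood, fibroblast, endothelial, erythroid, neuronal and muscle cells 6 were tested, and their summed level was 82 to 99.5 CPM with both drugs, 84.4 to 102 with 5-Ph-IAA, 88.6 to 101 with prexasertib and 83.2 to 95.7 in DMSO. The highest of the 16 were the neuronal gene SNAP25 at a mean of 48.4 CPM, the fibroblast gene COL1A1 at 31.7 and the neuronal gene SYT1 at 8.96. The endothelial genes PECAM1, VWF and CDH5 and the blood gene PTPRC, whose cell types are known for high KLF2, averaged at most 0.39 CPM (VWF). Of these lists, KRT7 and KRT8 were lower and PDGFRB higher with 5-Ph-IAA against DMSO. With both drugs against DMSO, KRT7 was lower and NAPSA and PDGFRB higher. With the replicate number as a block, the epithelial, alveolar and other lists had 0 higher and 3 lower, 2 and 1, and 2 and 1 in the first comparison. In the second they had 0 and 6, 2 and 1, and 1 and 0. With both drugs against prexasertib, where 0 were called without the block, they had 0 and 4, 2 and 1, and 1 and 1. Of all genes 19% were higher and 23.6% lower with the block, 21.2% and 23.5%, and 17.2% and 19.9%. The part of these markers in the results was not tested. In bulk RNA, fewer cells expressing a gene and less RNA per cell cannot be told apart.

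The regions just before the starts of 4 members are shown: KLF2, KLF9 and KLF13, whose mean level spanned at least 1 on the log2 scale between groups, and KLF6, which was lower in all 6 libraries with prexasertib. Each is the 250 bases before the annotated start, 5′ to 3′, from RefSeq on GRCh38.p14. Capitals mark matches, on either strand, to the E-box CACGTG, the CACCC box CACCC, the CCAAT box CCAAT, the CRE half-site TGACG, the CHR element TTTGAA, the TATA box TATAAA and the MEF2 core (CTA and TAG with any 4 bases between them), where no match overlapped another. The MEF2 core was added after the KLF2 sequence was seen.

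KLF2, chr19:16324576-16324825, plus strand: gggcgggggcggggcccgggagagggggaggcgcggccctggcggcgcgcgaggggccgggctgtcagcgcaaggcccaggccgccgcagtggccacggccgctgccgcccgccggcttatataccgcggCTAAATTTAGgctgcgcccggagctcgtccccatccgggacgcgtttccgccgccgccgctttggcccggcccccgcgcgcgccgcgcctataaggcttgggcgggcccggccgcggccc

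KLF9, chr9:70414658-70414907, minus strand: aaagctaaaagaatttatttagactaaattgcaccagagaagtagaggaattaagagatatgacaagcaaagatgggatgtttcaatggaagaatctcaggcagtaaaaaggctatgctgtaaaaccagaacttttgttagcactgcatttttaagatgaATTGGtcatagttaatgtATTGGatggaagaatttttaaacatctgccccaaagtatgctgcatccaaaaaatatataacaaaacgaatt

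KLF13, chr15:31326585-31326834, plus strand: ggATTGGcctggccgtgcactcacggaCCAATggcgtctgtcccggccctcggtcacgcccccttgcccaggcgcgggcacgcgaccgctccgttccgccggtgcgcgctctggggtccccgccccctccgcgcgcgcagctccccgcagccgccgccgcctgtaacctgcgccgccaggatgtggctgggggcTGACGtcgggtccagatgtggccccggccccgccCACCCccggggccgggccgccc

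KLF6, chr10:3785210-3785459, minus strand: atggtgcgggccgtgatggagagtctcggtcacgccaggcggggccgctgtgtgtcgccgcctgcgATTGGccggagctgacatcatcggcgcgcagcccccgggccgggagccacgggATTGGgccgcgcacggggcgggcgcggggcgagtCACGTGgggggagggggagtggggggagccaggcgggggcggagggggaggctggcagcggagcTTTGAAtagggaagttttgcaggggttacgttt

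The KLF2 window held 1 MEF2 core and no other motif, at a GC content of 80%. The KLF9 window, at 32.4% GC, held 2 CCAAT boxes. The KLF13 window held 2 CCAAT boxes, 1 CRE half-site and 1 CACCC box, and the KLF6 window held 2 CCAAT boxes, 1 E-box and 1 CHR element. Of 35116 windows of this length before RefSeq starts, 2.36% held the MEF2 core, 32% a CCAAT box, 21.2% a CRE half-site, 54.7% a CACCC box, 6.34% the E-box, 13.3% the CHR element and 10.7% the TATA box. Among the other members, KLF4 had 1 E-box and 2 CRE half-sites, and KLF5, KLF7 and KLF11 have more than 1 annotated start with differing motifs. A window was at hand for 8 of the 10 members, so KLF3 and KLF10 were not searched. The MEF2 core was also present in 1 of the 2 KLF11 windows. These matches are a description of the sequence.

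**Figure D1:**
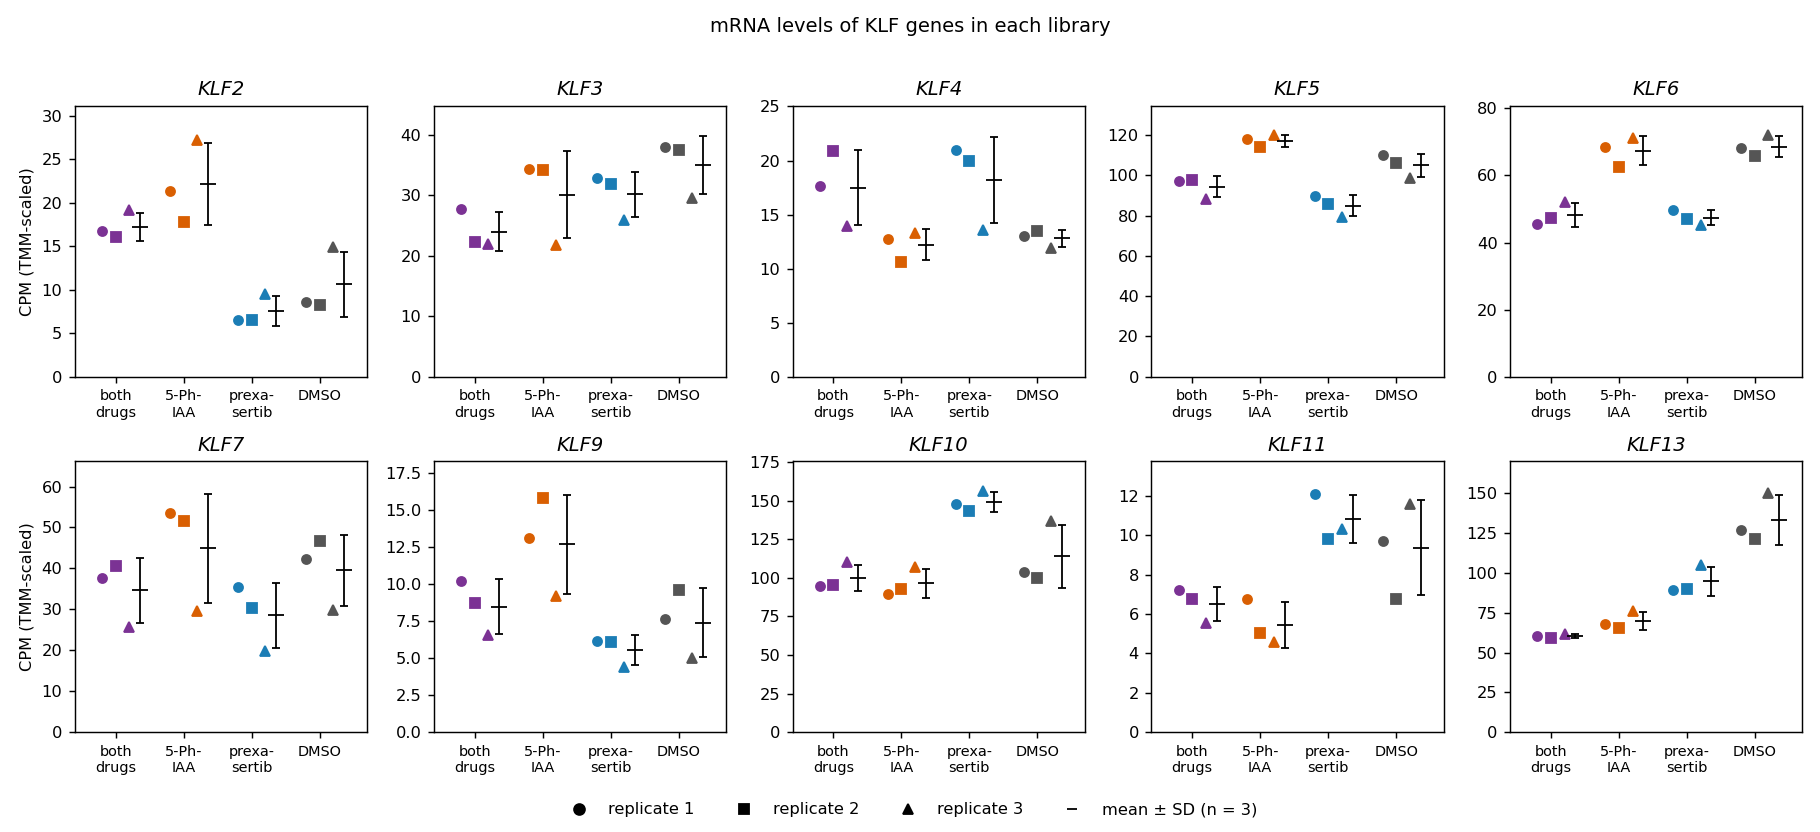
Level of each KLF mRNA (CPM on TMM-adjusted library sizes, linear axis from 0) in the 12 libraries, by group; symbols mark the replicate number and bars the mean ± SD of 3 libraries. KLF2 is high in the 6 libraries with 5-Ph-IAA, KLF13 is low in them, and KLF6 is low in the 6 libraries with prexasertib.

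5-Ph-IAA against DMSO asks what loss of TRRAP did without prexasertib, and both drugs against prexasertib asks the same with CHK1 inhibited. KLF2 rose in both settings, by 1.20 ± 0.239 (log2 fold change, SE) with prexasertib present and by 1.05 ± 0.229 without it. KLF13 fell by 0.64 ± 0.0966 and fell by 0.93 ± 0.0955, and KLF11 fell by 0.73 ± 0.212 and fell by 0.79 ± 0.213 in the same settings. KLF9 rose by 0.79 ± 0.258 without prexasertib, and KLF10 fell by 0.57 ± 0.114 with it. Calls throughout rest on edgeR's quasi-likelihood test, without a replicate block unless it is named. They used Benjamini-Hochberg adjustment over all genes tested and a threshold of 0.05. With both drugs against prexasertib 1 of 10 members was higher and 3 were lower, where 7.85% of all genes were higher and 10.4% lower. With 5-Ph-IAA against DMSO 2 of 10 were higher and 2 lower, where 9.65% of all genes were higher and 12.2% lower. The median log2 fold change of the members was -0.02 and -0.05 in these 2 comparisons, against 0.01 for all genes in each. The 2 groups did not overlap for 2 members above and 3 below with both drugs against prexasertib, where 17.6% of all genes lay above and 17.6% below. With 5-Ph-IAA against DMSO it was 2 above and 2 below, where 18.5% lay above and 18.9% below. With the replicate number as a block, 4 members were higher and 4 lower in the first comparison, where 17.2% and 19.9% of all genes were, and 3 were higher and 3 lower in the second, where 19% and 23.6% were.

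Among the activator group, KLF2 (NCBI Gene 10365, hg38 chromosome 19, 16324826 to 16328685) keeps T cells quiescent and is induced by blood flow in endothelium through the kinase ERK5 and MEF2 factors. It had 16.7, 16 and 19.1 CPM with both drugs, against 6.55, 6.54 and 9.52 CPM with prexasertib. It had 21.3, 17.8 and 27.2 CPM with 5-Ph-IAA, against 8.59, 8.27 and 14.9 CPM in DMSO. Every library with 5-Ph-IAA lay above every library without it (edgeR adjusted p = 0.0039 with prexasertib and 0.0055 without), and both calls held on leaving out each of the 12 libraries in turn. The libraries numbered 3 were the highest of their group in all 4 groups.

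KLF5 (NCBI Gene 688), which drives the growth of epithelial progenitors, had 97.3, 97.7 and 88.2 CPM with both drugs, against 89.5, 85.9 and 79.2 CPM with prexasertib. With 5-Ph-IAA it had 118, 114 and 120 CPM, against 110, 106 and 98.6 CPM in DMSO, and these last 2 groups did not overlap. Its fold changes of 0.15 ± 0.0729 and 0.16 ± 0.072 were not called (edgeR adjusted p = 0.17 and 0.12), but were with the replicate number as a block (edgeR adjusted p = 0.044 and 0.02). Scaled by library size alone, both were called, at 0.29 and 0.32. KLF4, a differentiation and reprogramming factor, and KLF6, an early-response gene, were not called, with log2 fold changes between -0.07 and 0.03 in these 2 comparisons. Scaled by library size alone, the KLF4 values and that of KLF6 without prexasertib turned positive. KLF7, best known from neurons, had 0.28 ± 0.281 with prexasertib present and 0.19 ± 0.273 without (edgeR adjusted p = 0.55 and 0.67). With the block the first was called (edgeR adjusted p = 0.011). With the 4 libraries numbered 3 left out, the second was called at 0.26 (edgeR adjusted p = 0.024).

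KLF3 (NCBI Gene 51274), the CtBP-dependent repressor, had 34.3, 34.2 and 21.8 CPM with 5-Ph-IAA and 32.8, 31.8 and 25.9 CPM with prexasertib. Its fold changes with 5-Ph-IAA were -0.33 ± 0.175 with prexasertib present and -0.21 ± 0.171 without. Neither was called (edgeR adjusted p = 0.22 and 0.41), and with the block the first was (edgeR adjusted p = 0.0082). The gene overlaps KLF3-AS1, annotated as a noncoding RNA, over 695 bases. KLF3-AS1 had 1 to 15 counts per library, against 251 to 666 for KLF3.

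The SIN3A-binding members moved in both directions. KLF13 (NCBI Gene 51621, hg38 chromosome 15, 31326835 to 31435665), known for activating the chemokine gene CCL5 in T cells, had 60.6, 59.3 and 61.6 CPM with both drugs, against 89.2, 89.8 and 105 CPM with prexasertib. It had 68.1, 65.4 and 76 CPM with 5-Ph-IAA, against 127, 121 and 150 CPM in DMSO. The groups did not overlap in either pair (edgeR adjusted p = 0.00052 and 2.3e-05), and both calls held in each of the 12 fits that left out a library. A noncoding gene, LOC105370939, lies within KLF13 and had 1 to 14 counts per library.

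KLF11 (NCBI Gene 8462), a TGF-β-inducible repressor, had 7.21, 6.74 and 5.56 CPM with both drugs, against 12.1, 9.81 and 10.3 CPM with prexasertib. With 5-Ph-IAA it had 6.76, 5.04 and 4.55 CPM, against 9.72, 6.78 and 11.6 CPM in DMSO. Each pair of groups was apart, although by a narrow margin in the second (6.76 against 6.78 CPM). The call with prexasertib present (edgeR adjusted p = 0.029) was lost without prexasertib replicate 1 or any replicate of both drugs (up to 0.11), and when scaled by library size alone (0.064). That without prexasertib (edgeR adjusted p = 0.018) was lost on leaving out replicate 1 or 3 of DMSO, or replicate 2 or 3 of 5-Ph-IAA (up to 0.077). When the 4 libraries numbered 3 were left out, its value was -0.50 (edgeR adjusted p = 0.055).

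KLF9 (NCBI Gene 687), induced by glucocorticoids and thyroid hormone, had 10.2, 8.7 and 6.53 CPM with both drugs, against 6.15, 6.09 and 4.4 CPM with prexasertib. With 5-Ph-IAA it had 13.1, 15.8 and 9.18 CPM, against 7.61, 9.59 and 4.98 CPM in DMSO. The groups of the first pair were apart and those of the second overlapped, and the libraries numbered 3 were the lowest of their group in all 4 groups. KLF9 was higher with 5-Ph-IAA within each number: the differences in log2 CPM without prexasertib were 0.77, 0.71 and 0.86. The call without prexasertib (edgeR adjusted p = 0.043, and 2.3e-05 with the block) was lost in 8 of the 12 fits that left out a library, namely DMSO replicate 1 or 3 or replicate 1 or 2 of any other group (up to 0.19). With prexasertib present the value of 0.61 ± 0.271 was not called (edgeR adjusted p = 0.14), but was with the block (edgeR adjusted p = 0.0025). With the 4 libraries numbered 3 left out and no block, it was called at 0.63 (edgeR adjusted p = 0.012). KLF9 overlaps the noncoding genes KLF9-DT and LOC124900273, which are not analysed here, so its level is uncertain where they share reads.

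**Figure D2:**
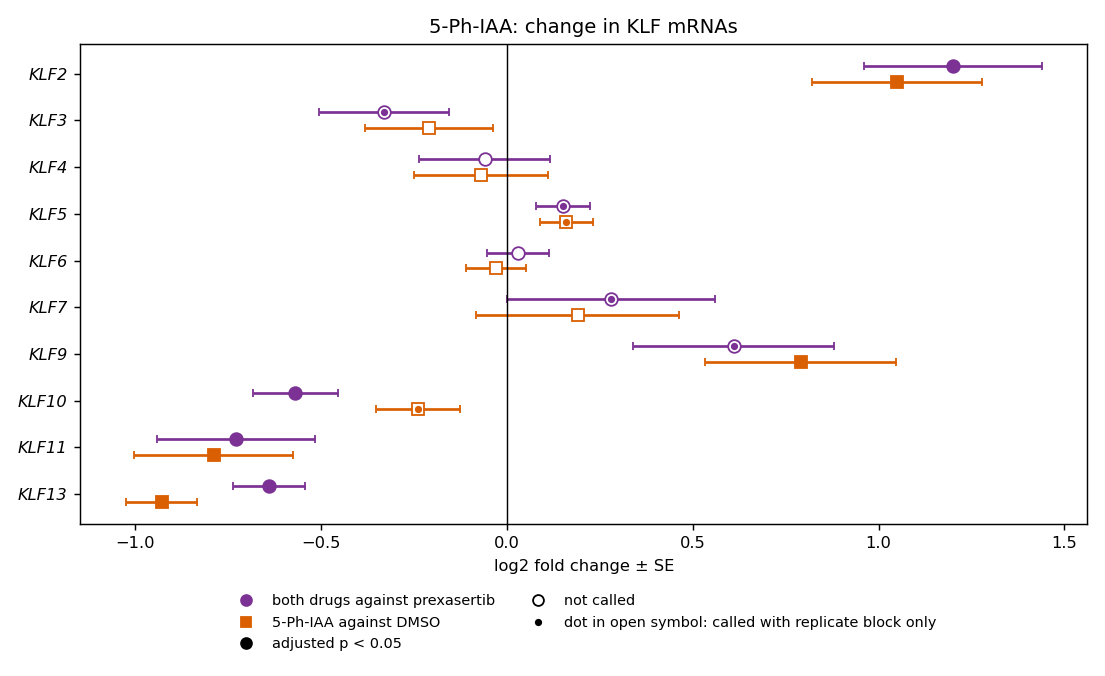
Log2 fold change ± SE of each KLF mRNA with both drugs against prexasertib (circles) and with 5-Ph-IAA against DMSO (squares); filled symbols have an edgeR adjusted p under 0.05, and a dot marks a call made with the replicate block only. KLF2 lies near 1 in both settings, and KLF11 and KLF13 lie below -0.5 in both.

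Prexasertib against DMSO asks what CHK1 inhibition did with TRRAP present, and both drugs against 5-Ph-IAA asks it after 5-Ph-IAA. These 2 comparisons share no library. KLF6 fell by 0.48 ± 0.0823 (log2, SE) after 5-Ph-IAA and fell by 0.53 ± 0.083 without it. KLF5 fell by 0.31 ± 0.0721 and fell by 0.30 ± 0.0728. KLF13 fell by 0.49 ± 0.095 without 5-Ph-IAA. With both drugs against 5-Ph-IAA 0 members were higher and 2 lower, where 1.17% of all genes were higher and 1.26% lower. With prexasertib against DMSO 0 were higher and 3 lower, where 2.36% of all genes were higher and 2.37% lower. The members' median log2 fold change was -0.32 and -0.36, against 0.01 and 0 for all genes. With the replicate block the counts were 1 higher and 7 lower, and 2 higher and 5 lower, where 7.8% and 8.37% of all genes were higher and 7.7% and 9.77% lower. The groups did not overlap for 1 member above and 3 below after 5-Ph-IAA, where 8.87% of all genes lay above and 10.7% below, and for 2 above and 3 below without it, where 9.78% lay above and 11.3% below.

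KLF6 (NCBI Gene 1316, hg38 chromosome 10, 3775996 to 3785209), an early-response gene with growth-restraining activity, had 45.4, 47.3 and 52.2 CPM with both drugs, against 68.6, 62.6 and 71.1 CPM with 5-Ph-IAA. With prexasertib it had 49.8, 47 and 45.3 CPM, against 68.1, 65.7 and 72 CPM in DMSO. The 6 libraries with prexasertib lay below the 6 without it (edgeR adjusted p = 0.0064 and 0.0025), and both calls held in each of the 12 fits that left out a library. The CPM of KLF5, given above, were also lower in every prexasertib library than in every library of its comparison group. The call of KLF5 after 5-Ph-IAA (edgeR adjusted p = 0.035) was lost in 8 of the 12 fits that left out a library (DMSO replicate 2, prexasertib replicate 2, or any replicate of 5-Ph-IAA or both drugs, up to 0.14). That without 5-Ph-IAA (edgeR adjusted p = 0.03) was lost in 6 (DMSO replicate 1 or 2, any prexasertib replicate, or 5-Ph-IAA replicate 1, up to 0.12). The fold changes in these fits stayed between -0.34 and -0.25.

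KLF4 (NCBI Gene 9314) had 17.6, 20.9 and 13.9 CPM with both drugs, against 12.7, 10.6 and 13.3 CPM with 5-Ph-IAA. With prexasertib it had 21, 20 and 13.6 CPM, against 13, 13.5 and 11.9 CPM in DMSO. The prexasertib libraries were above in both pairs, those numbered 3 by a small margin. Its fold changes of 0.52 ± 0.178 and 0.51 ± 0.18 were not called (edgeR adjusted p = 0.18 and 0.14), and were with the block (edgeR adjusted p = 0.005 and 0.0062). With the 4 libraries numbered 3 left out, the values were 0.71 and 0.64 (edgeR adjusted p = 0.00044 and 0.0017). Without prexasertib replicate 3 alone the value without 5-Ph-IAA was called as well (edgeR adjusted p = 0.033). KLF6, also known as an early-response gene, had the opposite sign.

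KLF7 (NCBI Gene 8609) had 37.7, 40.6 and 25.7 CPM with both drugs, against 53.6, 51.6 and 29.6 CPM with 5-Ph-IAA. With prexasertib it had 35.4, 30.3 and 19.8 CPM, against 42.2, 46.6 and 29.8 CPM in DMSO. The groups overlapped, with the libraries numbered 3 lowest in each group, while the difference within each number was negative in both pairs. The values of -0.38 ± 0.274 and -0.47 ± 0.28 were not called (edgeR adjusted p = 0.61 and 0.45), and were with the block (edgeR adjusted p = 0.0019 and 7.8e-05).

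KLF2, KLF3 and KLF9 had negative log2 fold changes in both settings, none of them called in the fit of all 12 libraries without the block. KLF2 had -0.35 ± 0.222 after 5-Ph-IAA and -0.49 ± 0.245 without it, KLF3 had -0.33 ± 0.173 and -0.21 ± 0.173, and KLF9 had -0.59 ± 0.255 and -0.41 ± 0.274. With the block, KLF2 (edgeR adjusted p = 0.037 and 0.016) was called in both, and KLF3 (edgeR adjusted p = 0.019) and KLF9 (edgeR adjusted p = 0.0045) after 5-Ph-IAA. With the 4 libraries numbered 3 left out and no block, KLF3 and KLF9 were also called after 5-Ph-IAA. Their values there were -0.47 and -0.63 (edgeR adjusted p = 0.0019 and 0.0082). In the SIN3A-binding group KLF13 was called without 5-Ph-IAA (edgeR adjusted p = 0.01, lost without prexasertib replicate 1 or 2, up to 0.056). After 5-Ph-IAA its value of -0.21 ± 0.0964 was called with the block only (edgeR adjusted p = 0.37 and, with the block, 0.022). KLF11 had 0.26 ± 0.216 and 0.20 ± 0.207 and was not called in either fit.

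**Figure D3:**
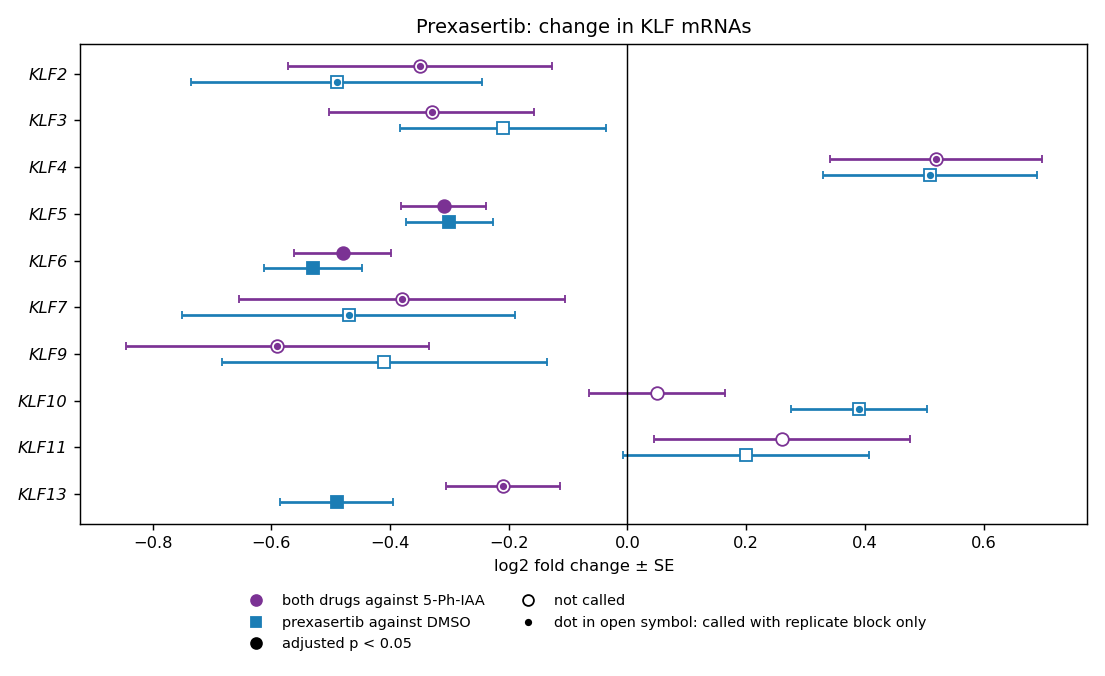
Log2 fold change ± SE of each KLF mRNA with both drugs against 5-Ph-IAA (circles) and with prexasertib against DMSO (squares); filled symbols have an edgeR adjusted p under 0.05, and a dot marks a call made with the replicate block only. KLF5 and KLF6 are filled and negative in both settings, and KLF4 is positive in both.

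KLF10 (NCBI Gene 7071, hg38 chromosome 8, 102648784 to 102655725), a TGF-β-inducible early gene, had the smallest unadjusted p of the members for a difference between the 2 settings. It had 94.7, 95.2 and 110 CPM with both drugs and 89.6, 92.6 and 107 CPM with 5-Ph-IAA. With prexasertib it had 148, 143 and 156 CPM, against 104, 99.8 and 137 CPM in DMSO. The prexasertib group stood above the other 3 groups, which overlapped each other. Prexasertib changed it by 0.05 ± 0.114 after 5-Ph-IAA (edgeR adjusted p = 0.9) and by 0.39 ± 0.114 without it. The value without it missed the threshold (edgeR adjusted p = 0.071) but passed it with the block (1.4e-06), in DESeq2 (0.022), under the strict filter (0.047) and without DMSO replicate 3 or replicate 3 of both drugs (as low as 0.0079). Against prexasertib alone, both drugs lowered it (edgeR adjusted p = 0.0035), a call that held in each of the 12 fits that left out a library. The difference 5-Ph-IAA against DMSO was -0.24 ± 0.114 (edgeR adjusted p = 0.16, and 0.0019 with the block).

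The interaction term tests on the log scale whether the change with prexasertib differed after 5-Ph-IAA. For KLF10 it was -0.34 ± 0.161, with an unadjusted p = 0.056 and an edgeR adjusted p = 1. With the block it was -0.35 ± 0.086 (edgeR adjusted p = 0.038), where 0.655% of all genes were called, 0.375% higher and 0.28% lower. KLF13 had the next smallest p, with 0.28 ± 0.135 (edgeR adjusted p = 1, and 0.14 with the block). For the other 8 members the term lay between -0.18 and 0.14. edgeR called 0 genes of 14658 for the interaction (0%), while 519 had an unadjusted p under 0.05, DESeq2 called 5 higher and 1 lower, and limma-voom called 0. These values therefore do not show that the other members responded alike in the 2 settings.

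With both drugs against DMSO, a comparison that shares its libraries with those above, 1 member was higher and 3 lower, where 11.8% of all genes were higher and 14.2% lower. KLF2 was higher by 0.70 ± 0.231 (edgeR adjusted p = 0.039), a call lost in 6 of the 12 fits that left out a library (replicate 1 or 2 of DMSO, replicate 1 of 5-Ph-IAA, or any replicate of both drugs, up to 0.14). KLF13 fell by 1.13 ± 0.0965 (edgeR adjusted p = 6.3e-06), KLF6 fell by 0.51 ± 0.0826 (edgeR adjusted p = 0.00065) and KLF3 fell by 0.54 ± 0.174 (edgeR adjusted p = 0.035). KLF3 had 27.7, 22.3 and 22 CPM with both drugs, against 38, 37.5 and 29.5 CPM in DMSO, and these groups did not overlap. Its call was lost without DMSO replicate 1 or 2 or replicate 2 or 3 of both drugs (up to 0.11), and when scaled by library size alone (0.11). With the block 2 members were higher and 6 lower, where 21.2% and 23.5% of all genes were, the added ones being KLF4 (edgeR adjusted p = 0.0068), KLF5 (0.037), KLF10 (0.015) and KLF11 (0.009). Without the block, KLF4 was called on leaving out replicate 3 of prexasertib or of both drugs, and KLF11 on leaving out DMSO replicate 2. The groups did not overlap for 2 members above and 4 below, where 19.7% of all genes lay above and 20.8% below.

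Across the 4 groups, KLF2 and KLF9 shared 1 order of mean level, from low to high prexasertib, DMSO, both drugs and 5-Ph-IAA. For KLF2 prexasertib and DMSO, and both drugs and 5-Ph-IAA, were neighbours that edgeR called different with the block only (edgeR adjusted p = 0.016 and 0.037). For KLF9 neither prexasertib and DMSO nor DMSO and both drugs were called different in either fit (with the block, edgeR adjusted p = 0.1 and 0.26). KLF13 had both drugs lowest, then 5-Ph-IAA, prexasertib and DMSO, of which the first and second were called different with the block only (edgeR adjusted p = 0.022). KLF10 and KLF11 ran from 5-Ph-IAA through both drugs and DMSO to prexasertib. Their first 2 groups were not called different in either fit (with the block, edgeR adjusted p = 0.64 for KLF10 and 0.39 for KLF11). The mean level spanned 1.53 (log2) between groups in KLF2, 1.15 in KLF9 and 1.12 in KLF13, and 0.47 to 0.98 in the other 7 members. Levels of different members were not compared, because no exon lengths were at hand.

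Libraries with the same replicate number deviated together, most strongly those numbered 3, but libraries numbered 1 and 2 also deviated with each other. Those numbered 3 were the lowest of their group for KLF3, KLF7 and KLF9 in 4 of 4 groups, and the highest for KLF2, KLF10 and KLF13 in 4 of 4. The labels do not say what the number stands for, and its part in the results was not tested beyond the block and the fits without these libraries. Among the members the biological coefficient of variation was largest in KLF7 (23.4%) and smallest in KLF5 (7.02%).

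**Figure D4:**
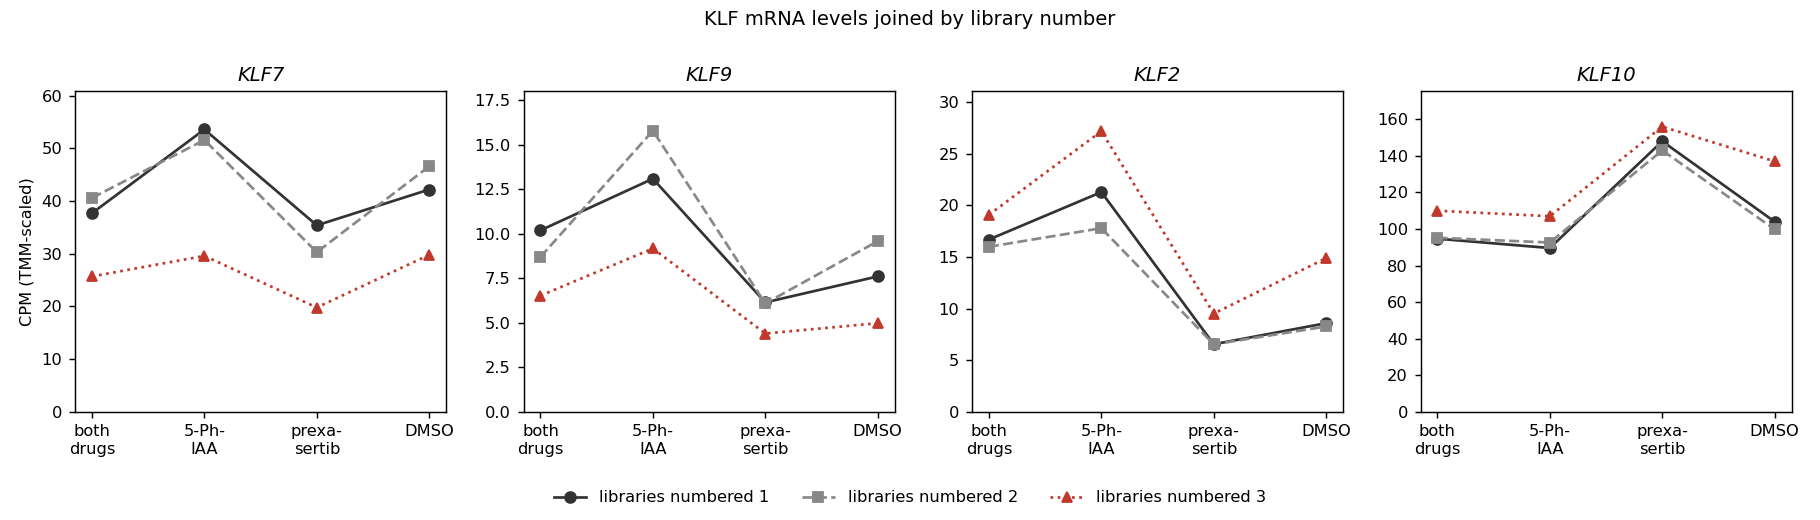
Level of 4 KLF mRNAs (CPM on TMM-adjusted library sizes) in each group, with lines joining libraries of the same replicate number. The libraries numbered 3 lie lowest for KLF7 and KLF9 and highest for KLF2 and KLF10, in every group.

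Of the 8 remaining KLF genes, KLF12, KLF16 and KLF17 were tested, and KLF1, KLF8, KLF14, KLF15 and KLF18 had at most 7 counts in any library. KLF16, a SIN3A-binding member close to KLF9 and KLF13, averaged 22.7 ± 1.65 CPM with both drugs, against 29.7 ± 1.07 CPM with prexasertib, and 18.4 ± 2.55 CPM with 5-Ph-IAA, against 29.5 ± 2.74 CPM in DMSO (SD, n = 3). With 5-Ph-IAA it fell by 0.39 ± 0.114 and fell by 0.68 ± 0.114 (edgeR adjusted p = 0.029 and 0.00095). With both drugs against DMSO it fell by 0.38 ± 0.113 (edgeR adjusted p = 0.024). With both drugs against 5-Ph-IAA its value of 0.30 ± 0.115 was called with the block only (edgeR adjusted p = 0.24 and, with the block, 0.035). KLF12 and KLF17 were called in no comparison by edgeR, with or without the block.

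Of the related SP factors, which bind similar GC-rich sites, 7 of 9 were tested. SP6, a factor of tooth and skin epithelium, had 16.3, 17.7 and 21.4 CPM with both drugs, against 9.51, 8.43 and 12.7 CPM with 5-Ph-IAA. With prexasertib it had 13.3, 14.4 and 12.5 CPM, against 6.86, 6.42 and 5.76 CPM in DMSO. With prexasertib it rose by 0.86 ± 0.162 and by 1.07 ± 0.173 (edgeR adjusted p = 0.011 and 0.0031). With 5-Ph-IAA it rose by 0.68 ± 0.173 against DMSO (edgeR adjusted p = 0.013), and its value of 0.47 ± 0.162 against prexasertib was called with the block only (edgeR adjusted p = 0.062 and, with the block, 0.0063). SP2 rose with 5-Ph-IAA by 0.67 ± 0.109 and by 0.78 ± 0.109 (edgeR adjusted p = 0.00091 and 0.00026), and SP4 rose by 0.61 ± 0.152 with 5-Ph-IAA against DMSO (edgeR adjusted p = 0.012). With both drugs against DMSO SP6 rose by 1.54 ± 0.17 and SP2 by 0.80 ± 0.109 (edgeR adjusted p = 3.8e-05 and 0.00019). In the same comparison SP1 fell by 0.28 ± 0.0857 (edgeR adjusted p = 0.026). With the block SP1 was also lower with both drugs against 5-Ph-IAA and with prexasertib against DMSO (edgeR adjusted p = 0.021 and 0.0013). SP3 was called with the block only, lower with prexasertib against DMSO and in both 5-Ph-IAA comparisons (edgeR adjusted p = 0.00015 to 0.023) and with both drugs against DMSO (9.5e-07), where SP5 was also called higher with the block only (0.019).

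The counts of the gene lists that follow stand against the shares of all genes called. These were 7.85% higher and 10.4% lower with both drugs against prexasertib, 9.65% and 12.2% with 5-Ph-IAA against DMSO, 1.17% and 1.26% with both drugs against 5-Ph-IAA, and 2.36% and 2.37% with prexasertib against DMSO. With the block they were 17.2% and 19.9%, 19% and 23.6%, 7.8% and 7.7%, and 8.37% and 9.77%.

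Of 12 cofactor genes of the family, 1 was higher and 3 lower with both drugs against prexasertib (1 and 6 with the block), and 2 were higher and 3 lower with 5-Ph-IAA against DMSO (2 and 5 with the block). The other 8 and 7 were not called without the block, and the medians were -0.18 and -0.13, against 0.01 for all genes. CTBP2, which encodes a CtBP corepressor, averaged 70.7 ± 5.25 CPM with both drugs, against 92.5 ± 5.97 CPM with prexasertib, and 72 ± 5.72 CPM with 5-Ph-IAA, against 109 ± 7.3 CPM in DMSO. It fell by 0.39 ± 0.0867 and fell by 0.59 ± 0.0861 (edgeR adjusted p = 0.007 and 0.00035). HDAC3, a histone deacetylase, rose by 0.41 ± 0.0745 and by 0.38 ± 0.074 (edgeR adjusted p = 0.0018 and 0.0029). With prexasertib 0 of the 12 were called in either setting by edgeR, while 3 had an unadjusted p under 0.05 after 5-Ph-IAA and 2 without it. With the block 1 was lower after 5-Ph-IAA and 2 were lower without it.

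Of 24 genes that act upstream of KLF genes 23 were tested. MEF2A, whose protein activates KLF2 in endothelium, rose with 5-Ph-IAA by 0.28 ± 0.0841 with prexasertib present and by 0.41 ± 0.0832 without (edgeR adjusted p = 0.035 and 0.0035). SMAD3 rose by 0.32 ± 0.0749 with prexasertib present (edgeR adjusted p = 0.01). MAPK7, which encodes ERK5, had -0.36 ± 0.143 and -0.17 ± 0.14 and was not called (edgeR adjusted p = 0.1 and 0.43). With the block the first was called (edgeR adjusted p = 0.0074). With both drugs against DMSO MAPK7 fell by 0.49 ± 0.142 (edgeR adjusted p = 0.021). A link of these genes to KLF2 was not tested. In all 3 upstream genes were higher and 1 lower with 5-Ph-IAA in the presence of prexasertib, and 5 were higher and 1 lower without it. With the block there were 6 higher and 7 lower, and 5 higher and 5 lower. The 1 lower without prexasertib was SRF (-0.37 ± 0.0936), the serum response factor, and the 1 lower with it was WWP1 (-0.35 ± 0.102), a ubiquitin ligase of KLF5. With prexasertib, 2 were lower after 5-Ph-IAA and 3 without it, and 0 were higher. With the block 9 were lower and 1 higher after 5-Ph-IAA, and 5 lower and 0 higher without it. NR3C1, the glucocorticoid receptor, fell by 0.32 ± 0.0649 and fell by 0.34 ± 0.065 (edgeR adjusted p = 0.016 and 0.0088). SMURF1, a ubiquitin ligase, fell by 0.47 ± 0.0842 after 5-Ph-IAA.

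Of 12 glucocorticoid-responsive genes 10 were tested. Without the block 0 were called with both drugs against prexasertib, where 2 had an unadjusted p under 0.05, and 2 were higher with 5-Ph-IAA against DMSO: the clock gene PER1 (0.82 ± 0.157) and TSC22D3 (0.60 ± 0.145). With the block 2 were higher and 2 lower in the first comparison, and 2 higher and 1 lower in the second. ANGPTL4 was the 1 higher with prexasertib against DMSO (0.81 ± 0.199), where the block gave 2 higher and 1 lower. With both drugs against 5-Ph-IAA 0 were called (1 at an unadjusted p under 0.05), and 1 was higher with the block. Of 12 TGF-β-responsive genes, CCN2 was the 1 called with 5-Ph-IAA without the block, rising by 0.84 ± 0.109 with prexasertib and by 0.97 ± 0.107 without it. With the block 2 were higher and 4 lower, and 3 higher and 5 lower. With prexasertib edgeR called 0 of these 12 in either setting, and 3 after 5-Ph-IAA and 4 without it had an unadjusted p under 0.05. These counts of 0 depended on the fit: with the block 1 was higher and 3 lower after 5-Ph-IAA, and 5 were higher and 3 lower without it.

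Of 16 genes known as KLF targets 12 were tested. CCND1, which encodes cyclin D1 and is known as a target of KLF4 and KLF5, averaged 304 ± 11.2 CPM with both drugs, against 376 ± 17.5 CPM with prexasertib, and 314 ± 14.7 CPM with 5-Ph-IAA, against 430 ± 14.6 CPM in DMSO. It was 1 of 3 targets lower with 5-Ph-IAA in each setting, where 0 were higher. With the block 5 were lower and 2 higher with prexasertib present, and 4 lower and 0 higher without it. CDKN1A, which encodes the inhibitor p21 and is known as a target of KLF4 and KLF6, rose with prexasertib by 0.76 ± 0.0835 after 5-Ph-IAA (edgeR adjusted p = 0.00022) and by 0.42 ± 0.0833 without it (edgeR adjusted p = 0.011). In all 1 target was higher and 0 lower after 5-Ph-IAA, and 2 higher and 0 lower without it, against 3 higher and 1 lower, and 3 higher and 2 lower, with the block. Of 18 tested early-response genes, 4 were higher and 1 lower with prexasertib after 5-Ph-IAA, and 7 were higher and 0 lower without it. With the block 13 were higher in each setting, and 1 was lower after 5-Ph-IAA. NR4A1, an orphan nuclear receptor gene, rose by 0.69 ± 0.0941 and by 1.22 ± 0.0961, and BTG2, an antiproliferative gene, rose by 1.20 ± 0.108 and by 0.97 ± 0.107.

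Among 12594 genes whose log2 CPM averaged 1 or more, those closest to KLF2 over the 4 group means, each centred on its own mean, were DACT3, SALL2 and FAM222A, at a root mean square difference of 0.0345 to 0.0523 (log2). For KLF9 they were PAQR9, JAK3 and NRXN2 (0.043 to 0.0463), and for KLF13 they were TCF19, CCDC88C and the pseudogene RPL13P5 (0.0149 to 0.0178), whose reads may come from its parent gene. These 3 members were those whose group means spanned at least 1 on the log2 scale. SALL2, for example, averaged 16.4 CPM with both drugs, 20.6 CPM with 5-Ph-IAA, 7.53 CPM with prexasertib and 10.2 CPM in DMSO.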

How the data were processed

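RNA was poly(A)-selected and libraries were directional, per the labels' protocols. The authors deposited a table of raw counts per gene, 1 column per library, with no normalization. Tools named in the submitters' processing notes are featureCounts 2.0.8 and limma 3.58.1, with build hg38. For the aligner, annotation and strand setting no source used here gives a value, so antisense and overlapping genes are uncertain. Of 28395 gene IDs 27745 matched the RefSeq gene table by NCBI Gene number.

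The count analysis used edgeR 4.0.16 (R 4.3.3) with the filterByExpr filter at 10 counts and a total of 15, TMM factors, and a robust quasi-likelihood fit with 1 term per group over all 12 libraries. The script was tested on simulated data. The SE is the log2 fold change divided by the square root of F. Unless another fit is named, adjusted p-values are those of this one. Alternatives were DESeq2 1.42.0 size factors or its own test, library size alone, no filter, a strict filter (at least 50 counts in every library of at least 1 group), limma-voom 3.58.1, a replicate block, and fits without each library or without the 4 numbered 3.

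The labels give the same replicate numbers to the 4 groups but do not say what they mark. The 18 pairs of same-numbered libraries had correlations of 0.22 to 0.633 between their deviations from the group means, all above 0.1. Pairs with different numbers ran from -0.503 to 0.366. The threshold cannot tell numbers 1 and 2 apart, since libraries with these numbers correlated with each other at 0.196 to 0.366. It sets apart only the libraries numbered 3. The numbers were nonetheless taken as pairing the samples, and block values stand beside member values and list counts whose call they change. Only the spread between these samples enters the p-values, since the labels do not say whether libraries came from separate cultures.

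The members and the gene lists were chosen with earlier results of these data known. All members were named. From the other lists, up to 2 called genes in the direction with more calls and 1 in the other could be named, by smallest adjusted p, besides KLF and SP genes that passed the filter, CDKN1A and CCND1. MAPK7 was also named, because it encodes the kinase ERK5 mentioned for KLF2. The 13 CUT&RUN samples were not analysed here.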

Additional observations from a re-analysis of the deposited data

Results flagged for a closer look

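KLF10 drew attention because its change with prexasertib differed between the settings with and without 5-Ph-IAA in the fit with the replicate block. The interaction term of that fit was -0.35 on the log2 scale (edgeR adjusted p = 0.038), and without the block it was -0.34 (edgeR adjusted p = 1). Within the numbers 1, 2 and 3, the difference in log2 CPM with prexasertib was 0.08, 0.04 and 0.04 after 5-Ph-IAA, against 0.52, 0.51 and 0.18 without it.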

How the results depend on the processing

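Of the 60 values (10 members in 6 comparisons), 17 were called, and 0 of these reversed under the 20 alternatives; 9 kept their call in all 12 fits that left out a library, and the range of each other call stands beside it in the report. Scaling by DESeq2 size factors, limma-voom and no filter changed no call. Without the block the counts were 0 higher and 3 lower with prexasertib against DMSO, 2 and 2 with 5-Ph-IAA against DMSO, 1 and 3 with both drugs against prexasertib, 0 and 2 against 5-Ph-IAA, 1 and 3 against DMSO, and 0 for the interaction. With the replicate block, 21 more values were called and none was lost. It gave 2 higher and 5 lower members with prexasertib against DMSO, 4 higher with both drugs against prexasertib, 1 higher and 7 lower with both drugs against 5-Ph-IAA, 2 higher and 6 lower with both drugs against DMSO, and 1 lower for the interaction. Without the 4 libraries numbered 3 there were 2 higher and 4 lower with prexasertib against DMSO, 3 higher and 1 lower with 5-Ph-IAA against DMSO, 2 higher and 4 lower with both drugs against prexasertib, 1 higher and 5 lower with both drugs against 5-Ph-IAA, 2 higher and 3 lower with both drugs against DMSO, and 1 lower for the interaction (KLF10, -0.48, edgeR adjusted p = 0.0051). The strict filter and DESeq2 each gave 1 higher member with prexasertib against DMSO, and library size alone gave 2 higher with both drugs against prexasertib and 2 against DMSO. Library size alone also moved the median of all genes to 0.15 with both drugs against prexasertib, 0.16 with 5-Ph-IAA against DMSO and 0.11 with both drugs against DMSO. With both drugs against prexasertib, 74.3% of its calls over all genes were higher, in place of 43%; with 5-Ph-IAA against DMSO, 75.4% in place of 44.2%; with both drugs against 5-Ph-IAA, 31.6% in place of 48.2%; with prexasertib against DMSO, 37.3% in place of 49.9%; and with both drugs against DMSO, 65.2% in place of 45.4%. The cause of these changes was not tested.

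With 1 library left out there were 0 to 1 higher and 1 to 3 lower members with prexasertib against DMSO, 1 to 2 higher and 1 to 2 lower with 5-Ph-IAA against DMSO, 1 higher and 2 to 3 lower with both drugs against prexasertib, 0 higher and 1 to 2 lower with both drugs against 5-Ph-IAA, 0 for the interaction, and 0 to 2 higher and 2 to 3 lower with both drugs against DMSO. Values that changed sign were all uncalled. With library size alone they were KLF4 (0.08) and KLF6 (0.13) with 5-Ph-IAA against DMSO, KLF4 (0.08) with both drugs against prexasertib and the KLF4 interaction (-0.01). Without the libraries numbered 3 they were KLF6 with both drugs against prexasertib (-0.07) and the interaction terms of KLF5 (0.02), KLF6 (-0.06), KLF7 (-0.02) and KLF11 (-0.16). With 1 library left out, the ranges that crossed 0 were -0.14 to 0.02 (KLF4) and -0.07 to 0.02 (KLF6) with 5-Ph-IAA against DMSO, -0.24 to 0.07 (KLF4) and -0.04 to 0.07 (KLF6) with both drugs against prexasertib, -0.03 to 0.13 (KLF10) with both drugs against 5-Ph-IAA and -0.02 to 0.43 (KLF9) with both drugs against DMSO. For the interaction they were -0.19 to 0.33 (KLF2), -0.17 to 0.13 (KLF4), -0.07 to 0.03 (KLF5), -0.02 to 0.1 (KLF6), -0.13 to 0.26 (KLF7), -0.4 to 0.04 (KLF9) and -0.12 to 0.24 (KLF11).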
